A study of Rattus norvegicus with 18 samples.

Results

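The genes described here are 10 that lead the list of differences between hearts of ZSF1 lean and WKY rats: Plppr4, Frmpd1, Vwa2 and Ephx2, which were higher in the lean ZSF1 hearts, and Egfl6, Ccdc68, Pus7l, Tdrd1, Vxn and Tom1l1, which were lower. They are 10 of the 233 genes in that list and of the 6588 genes in any of the authors' 3 lists. Left ventricles of 18 male rats, 6 to a group (WKY, ZSF1 lean and ZSF1 obese), gave the polyadenylated RNA that was sequenced. WKY is the normotensive control strain, the design text calls ZSF1 lean the hypertensive group, and it gives ZSF1 obese as hypertensive with metabolic syndrome and as the group that models HFpEF, a heart failure in which the ejection fraction is preserved. The ZSF1 rat is a hybrid line that carries leptin receptor mutations, and its obese animals lack a working receptor while lean littermates keep one. The labels give no age, treatment or diet. Lean and WKY rats differ in strain and in blood pressure at once, so these cannot be told apart, and "strain difference" below means the difference between these groups. Lean and obese rats share the ZSF1 background.

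Each of the authors' deposited tables holds genes that passed a fold of 2 in either direction and an adjusted p below 0.05, with a fold and an adjusted p from 6 rats against 6. The largest adjusted p was 0.0003474 in lean against WKY, but 0.04989 in obese against WKY and 0.04978 in obese against lean. Whether a stricter limit was set for lean against WKY is not given in the sources used here. A fold of 0.5 or less means lower in the first-named group. Values per rat are not part of the tables, so the spread between rats and the sequencing depth are unknown, and overlap of the groups cannot be read. A gene that a table does not list may have missed either threshold or may not have been detected. The number of genes that were tested is not given either, so shares below are of listed genes. In these bulk samples, fewer cells of a type and less RNA per cell cannot be told apart.

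The 10 genes share no pathway. Ephx2 encodes soluble epoxide hydrolase, which turns epoxyeicosatrienoic acids, vasodilator lipids made from arachidonic acid by cytochrome P450 enzymes, into weaker diols. Plppr4 encodes a brain-enriched membrane protein of the lipid phosphate phosphatase family that bears on lysophosphatidate signalling at synapses. Vwa2 and Egfl6 encode secreted proteins of basement membranes, Frmpd1 a scaffold that binds the LGN family of G protein regulators, and Tom1l1 an endosomal adaptor that binds Src family kinases. Tdrd1 encodes a germline Tudor protein that binds Piwi proteins, Pus7l a relative of a pseudouridine synthase, Ccdc68 a protein of the centriole's subdistal appendages and Vxn (vexin) a factor of neural development.

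The 4 genes that were higher in lean hearts were all lower again in obese than in lean hearts, by 2.81 to 4.59 times. The 6 genes that were lower in lean hearts stayed lower than WKY in obese hearts, and of these Tdrd1 alone was listed with a further fall. None of the 10 was listed as moving past the WKY level to the other side, as 6.71% of the genes higher and 15.5% of those lower in lean hearts were. The calls in the authors' deposited tables thus place 3 genes as partly cancelled in obese hearts (Plppr4, Frmpd1 and Vwa2), 1 as cancelled (Ephx2), 1 as added to (Tdrd1) and 5 with no further change listed (Egfl6, Ccdc68, Pus7l, Vxn and Tom1l1). The placement of Plppr4 is the least settled, since its folds in the 3 tables cannot be joined.

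The genes were chosen by their folds and adjusted p-values in lean against WKY, so their values there are a description. Among all listed genes of that comparison 63.9% were higher in lean hearts, and of the 10 described 4 were. Plppr4 has the highest fold among the 149 higher genes. Frmpd1 is at place 5 and Vwa2 at place 6, which it shares with Trim16. Ephx2 is at place 29 by fold, but is at place 3 of the whole table by adjusted p. Among the 84 lower genes Egfl6 has the lowest fold, Ccdc68 is at place 6, Pus7l at 7, Vxn and Tdrd1 share place 8, and Tom1l1 is at place 23 by fold and at place 2 by adjusted p. The choice is therefore no clean cut by fold. Between Plppr4 and Frmpd1 stand Ifit1, Tcp11x2 and Setd4, with folds of 15.1, 14.8 and 8.00 in the authors' deposited table. In all, 25 other higher genes and 18 other lower genes are at least as far from a fold of 1 as the least changed gene described in that direction. Next to Ephx2 in the order stand Cnpy1 at 3.41 and Nap1l5 at 3.29, and next to Tom1l1 stand Cyp1a1 at 0.37 and Dnajc22 at 0.38, in the authors' deposited table.

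**Figure D1:**
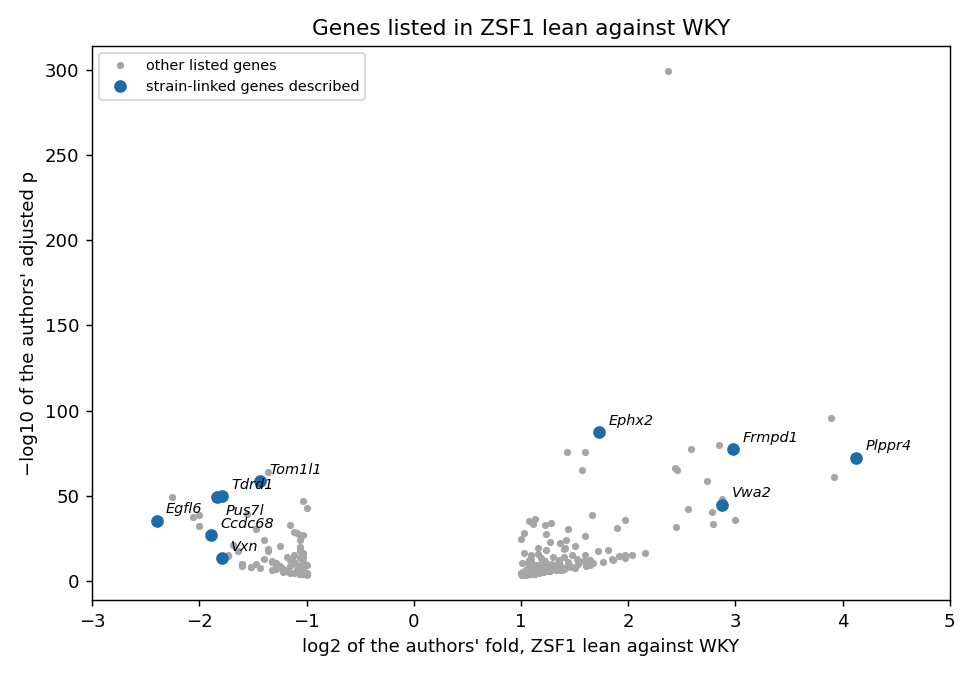
Each point is a gene of the authors' lean against WKY table, with log2 of the fold on the x axis and −log10 of the adjusted p on the y axis; blue points are the 10 genes described and grey points the other 223. Plppr4 is farthest to the right at a fold of 17.5, Egfl6 farthest to the left at 0.19, and Ephx2 stands high at a moderate fold of 3.32.

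In the authors' deposited table Plppr4 (ENSRNOG00000016872) was 17.5 times as high in lean as in WKY hearts, with an adjusted p of 4.49e-73. Obese hearts had 29.7 times the WKY level (adjusted p = 5.33e-12) but 0.287 of that of lean hearts (adjusted p = 0.00213), again from the authors' deposited tables. Both comparisons with WKY put it far above the control strain, and it is at place 14 of the 3084 genes that were higher in obese than in WKY hearts. The 2 ZSF1 groups, by contrast, are ordered differently by different tables. The folds against WKY alone would put obese hearts at 1.69 times the lean level, while the direct comparison lists them as 3.48 times lower. For genes listed in all 3 tables the lean folds are on a narrower scale than the obese folds, as shown further on. That by itself raises the 1.69, so the 2 routes do not weigh the same. Whether obesity took away part of the strain difference in Plppr4 or left it in place depends on which tables are read.

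Frmpd1 (ENSRNOG00000012546) was 7.89 times as high in lean as in WKY hearts (adjusted p = 3.05e-78) in the authors' deposited table. In obese hearts it was 3.53 times as high as in WKY (adjusted p = 1.66e-07) and at 0.351 of the lean level (adjusted p = 6.38e-10) in the authors' deposited tables. Obese hearts thus lie between WKY and lean hearts. Multiplying the strain fold by the obese to lean fold gives 2.77 for obese against WKY, near the listed value. With a fold threshold of 3 in place of 2, the fall from lean to obese hearts would no longer be listed.

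Vwa2 (ENSRNOG00000025581), the gene of the matrix protein AMACO, had the deepest fall of the 10 in the direct comparison of obese with lean hearts. Its fold was 7.36 in lean against WKY (adjusted p = 1.40e-45), 2.69 in obese against WKY (adjusted p = 0.00244) and 0.218 in obese against lean (adjusted p = 3.99e-14) in the authors' deposited tables. The strain fold times the obese to lean fold gives 1.60, which would not pass the fold threshold. The narrower scale of the lean folds, shown further on, by itself lowers this product. How much of the strain difference remained in obese hearts is thus less certain for Vwa2 than for Frmpd1. By the ratio of the folds against WKY, obese hearts stood at 0.366 of the lean level for Vwa2 and at 0.248 for Tdrd1. Tdrd1 had the deeper fall by that route.

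Ephx2 (ENSRNOG00000017286) was 3.32 times as high in lean as in WKY hearts (adjusted p = 3.18e-88) in the authors' deposited table. Relative to lean hearts, obese hearts had 0.356 of the level (adjusted p = 6.01e-13) in the authors' deposited table. Ephx2 is not listed in obese against WKY, and the product of the other 2 folds is 1.18. For genes listed in all 3 tables the lean folds are on a narrower scale, as shown further on. If that holds for Ephx2 too, it by itself lowers this product. Of the 4 higher genes it is the one whose strain difference was no longer listed in obese hearts. A missing entry does not show that obese and WKY hearts had equal levels. With a fold threshold of 3, the fall from lean to obese hearts would not be listed and Ephx2 would no longer count as cancelled.

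All 4 higher genes were listed as lower in obese than in lean hearts, where 32.2% of the 149 higher genes were (48 genes) and 21.5% were listed as higher still (32 genes). In obese against WKY hearts 3 of the 4 stayed listed as higher, against 62.4% of the 149. Lean rats enter both the lean against WKY and the obese against lean comparison, so a high level in the lean rats alone raises the first fold and lowers the second. Nothing is read from the 4 of 4 for this reason. Partial cancelling, the class of Plppr4, Frmpd1 and Vwa2, held 9 of the 149 higher genes (6.04%), and these also include Pbld1 and Sgms2. Cancelling, the class of Ephx2, held 29 of the 149 (19.5%). A gene with a high strain fold can fall and still be listed above WKY. Plppr4, Frmpd1 and Vwa2 were chosen with high folds, so nothing is read from their class against the 6.04%.

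Egfl6 (ENSRNOG00000004275) stood at 0.19 of the WKY level in lean hearts (adjusted p = 3.45e-36) and at 0.141 in obese hearts (adjusted p = 5.23e-10) in the authors' deposited tables. Ccdc68 (ENSRNOG00000021381) stood at 0.27 in lean hearts (adjusted p = 1.88e-27) and at 0.216 in obese hearts (adjusted p = 1.02e-19) in the authors' deposited tables. The ratio of the 2 folds is 0.742 for Egfl6 and 0.800 for Ccdc68, inside the fold threshold, and obese against lean lists neither. Equal levels in the 2 ZSF1 groups are not shown by this, since lean and obese folds may be on different scales.

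Pus7l (ENSRNOG00000022570) stood at 0.28 of the WKY level in lean hearts (adjusted p = 4.71e-50) and at 0.354 in obese hearts (adjusted p = 1.48e-14) in the authors' deposited tables. For Vxn (ENSRNOG00000021663) the authors' deposited tables gave 0.29 in lean (adjusted p = 5.81e-14) and 0.314 in obese hearts (adjusted p = 8.62e-05). Here the obese folds were slightly nearer to 1 than the lean folds, with ratios of 1.26 and 1.08. No table lists a difference between lean and obese hearts for either gene.

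Tom1l1 (ENSRNOG00000002474) stood at 0.37 of the WKY level in lean hearts (adjusted p = 2.54e-59) and at 0.196 in obese hearts (adjusted p = 6.67e-19) in the authors' deposited tables. The ratio of these folds is 0.530, just inside the threshold of 0.5, and obese against lean does not list the gene. Of the 5 genes with no further change listed it has the lowest such ratio. For genes listed in all 3 tables the lean folds are on a narrower scale than the obese folds, as shown further on, which by itself lowers this ratio for genes below WKY, so no further fall is read from it.

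Tdrd1 (ENSRNOG00000017064) is the gene whose strain difference grew. The authors' deposited tables gave it 0.29 in lean against WKY (adjusted p = 2.72e-50), 0.266 in obese against lean (adjusted p = 1.96e-14) and 0.072 in obese against WKY (adjusted p = 4.79e-61). The steps from WKY to lean and from lean to obese were of like size, 3.45 and 3.76 times, and their product of 0.0771 is close to the listed 0.072. By size, Tdrd1 is at place 75 of the 2625 genes that were lower in obese than in WKY hearts.

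All 6 lower genes stayed listed as lower in obese than in WKY hearts, against 42.9% of the 84 lower genes (36 genes). In obese against lean, 5 of the 6 were not listed, against 35.7% of the 84, and 1 of the 6 was lower, against 16.7%. Across the 84 genes 47.6% were listed as higher in obese than in lean hearts, and none of the 6 was. The WKY rats are shared by both comparisons with WKY, and the 6 were picked with these tables known, so these shares only describe them.

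**Figure D2:**
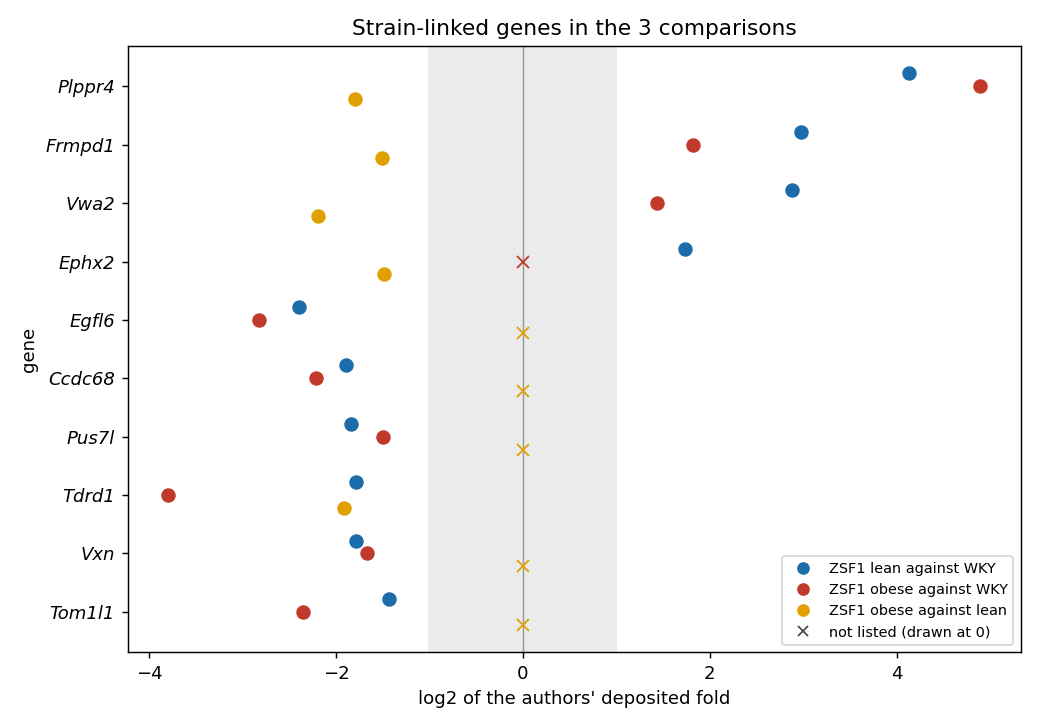
For each of the 10 genes the x axis gives log2 of the authors' deposited fold in the 3 comparisons (blue lean against WKY, red obese against WKY, yellow obese against lean); the grey band spans folds between 0.5 and 2, and a cross at 0 marks a gene the table does not list. The yellow points of Plppr4, Frmpd1, Vwa2 and Ephx2 lie left of the band and opposite to their blue points, and Tdrd1 has all 3 points on the left.

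**Figure D3:**
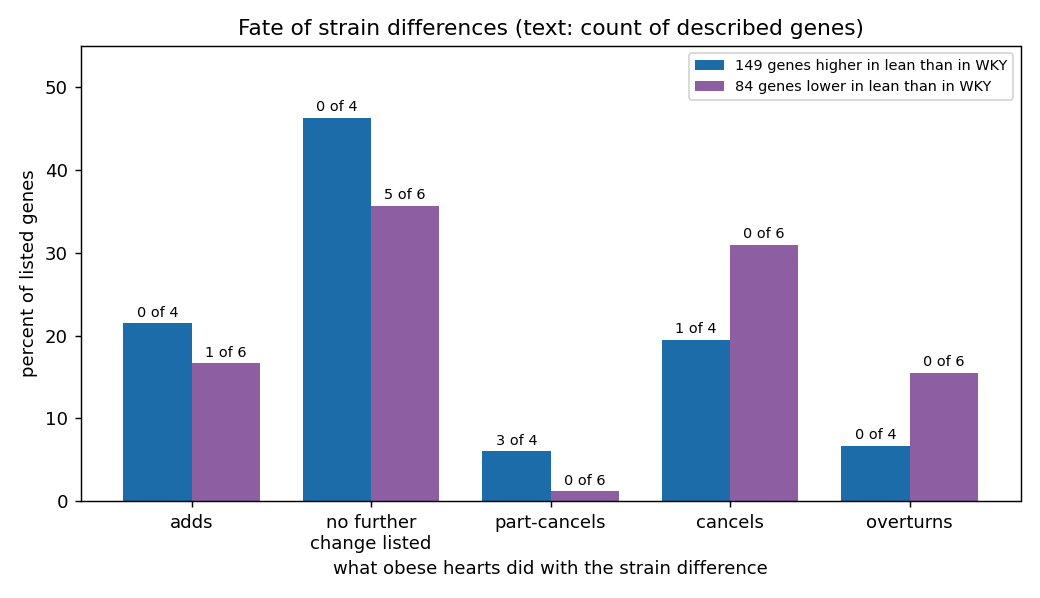
Bars give the percent of the 149 genes higher (blue) and the 84 genes lower (purple) in lean than in WKY hearts that fall in each class of what obese hearts did with the difference; the label over a bar counts the described genes in it. No further change listed was the most frequent class in both directions (46.3% and 35.7%). Of the 4 higher genes described, 3 are in the class of partial cancelling, which holds 6.04%. They were chosen with high folds, which favours this class, so nothing is read from the contrast.

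The 3 tables were compared with each other, since the strain fold can also be worked out as obese against WKY divided by obese against lean. If the 3 folds came from the same group means, both routes would agree apart from rounding. For 79 genes listed in all 3 tables the worked-out strain fold was farther from 1 than the deposited one in 79, both for the 51 higher and for the 28 lower genes. The median gap was 0.34 on the log2 scale, or 1.27 times, and 13 genes had a gap above 1 log2 unit. For these genes the folds of the lean table are therefore on a narrower scale than those of the obese tables. Whether the authors shrank the folds of one of the tables is not given in the sources used here.

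Plppr4 had the largest gap of the 79. Its worked-out strain fold was 103, which is 5.90 times the deposited 17.5 (gap of 2.56 on the log2 scale). Next came RT1-S2 and Cnpy1 with gaps of 2.37 and 2.15, named after their values were seen. For Vwa2 the worked-out fold was 12.4 (gap of 0.75) and for Frmpd1 10.1 (gap of 0.35). Tdrd1 gave 0.271 against the deposited 0.29, a gap of -0.10, so for this gene the tables were close. Among the 73 genes listed against WKY in both ZSF1 groups but not in obese against lean, 23 have 2 folds against WKY that differ by a factor of 2 or more, and in all 23 the obese fold is the more extreme. None of the 5 genes described with no further change listed is among the 23.

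**Figure D4:**
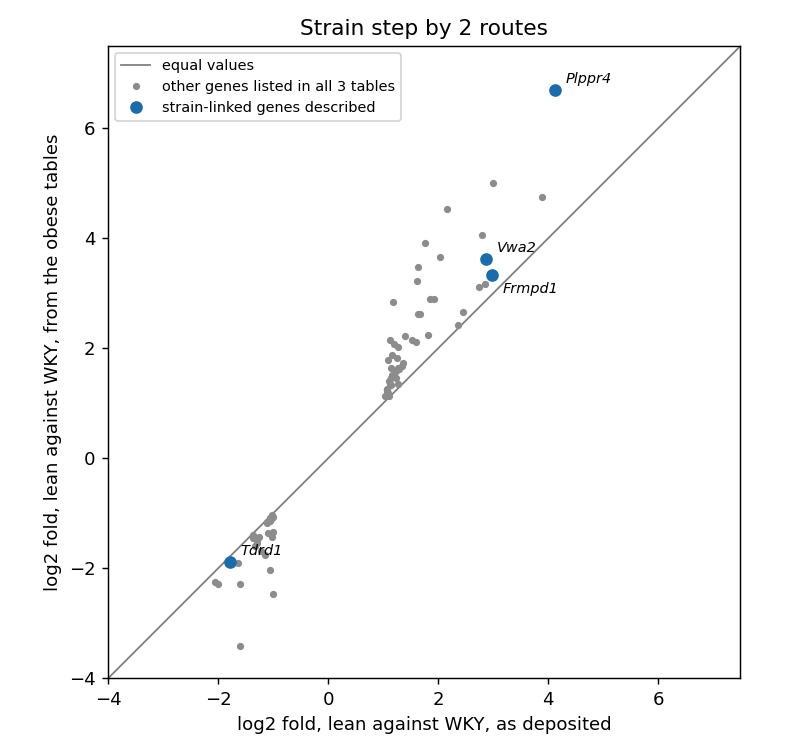
Each point is a gene listed in all 3 tables, with the deposited log2 fold of lean against WKY on the x axis and the log2 fold worked out from the obese tables on the y axis; the line marks equal values. All 79 points lie farther from 0 on the y axis than on the x axis, and Plppr4 at 4.13 and 6.69 is farthest from the line.

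Adjusted p-values also differed between the tables. Of the 9 genes listed in both comparisons with WKY, 8 had a larger adjusted p in obese than in lean hearts in the authors' deposited tables. Plppr4, Egfl6, Ccdc68 and Tom1l1 did so in spite of an obese fold farther from 1. Tdrd1 was the exception. Over the 129 genes listed against WKY in the same direction in both, 60 had the larger adjusted p in obese hearts. The 9 were chosen in part by a small adjusted p in lean hearts, so nothing is read from the 8 of 9.

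Tdrd1 and Vwa2 are next to each other on rat chromosome 1 in the gene order of RefSeq's GRCr8 assembly, a later build than the Rnor_6.0 of the tables, and are read from the same strand. They differed in opposite directions between lean and WKY hearts and in the same direction between obese and lean hearts. No other neighbour of the 10 genes is listed in lean against WKY: of 90 further genes within 5 places on either side, 0 were, while 11 were listed in obese against WKY and 10 in obese against lean. The lean against WKY comparison lists 233 genes and the others list 5709 and 5700, so the 0 says nothing about these neighbours. Beside the pair, Adrb1, the beta-1 adrenergic receptor gene, stood at 0.049 and 0.055 in these 2 authors' deposited tables and Afap1l2 at 3.10 and 2.95. Frmpd1 and Vxn share chromosome 5 but are not within 5 places of each other. The other 6 genes are on chromosomes 2 (Plppr4), 7 (Pus7l), 10 (Tom1l1), 15 (Ephx2), 18 (Ccdc68) and X (Egfl6).

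RefSeq's GRCr8 promoter table holds 6 of the 10 genes: Plppr4, Frmpd1, Vwa2, Tdrd1, Pus7l and Tom1l1. The 250 bases before the start of transcription are shown for the 3 higher genes among them and for Tdrd1, the neighbour of Vwa2 that went the other way between lean and WKY. Capitals mark matches on either strand to TATAAA (core promoter box bound by TBP), CCAAT (box bound by NF-Y), GGGCGG (GC box bound by Sp1 proteins) or TGACGTCA (cAMP response element), and overlapping matches would share capitals.
Plppr4, GRCr8 chr2:208097192-208097441, minus strand: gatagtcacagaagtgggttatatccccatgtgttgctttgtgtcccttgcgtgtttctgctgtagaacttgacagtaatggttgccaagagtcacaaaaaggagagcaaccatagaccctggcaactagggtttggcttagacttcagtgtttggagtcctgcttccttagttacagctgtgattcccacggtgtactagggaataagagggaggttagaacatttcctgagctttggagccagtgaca
Frmpd1, GRCr8 chr5:64238480-64238729, plus strand: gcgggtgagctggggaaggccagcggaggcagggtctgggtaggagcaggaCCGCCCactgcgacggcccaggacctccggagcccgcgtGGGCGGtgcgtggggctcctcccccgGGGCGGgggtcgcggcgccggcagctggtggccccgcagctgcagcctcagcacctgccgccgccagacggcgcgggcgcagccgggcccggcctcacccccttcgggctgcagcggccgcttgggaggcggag
Vwa2, GRCr8 chr1:265927176-265927425, plus strand: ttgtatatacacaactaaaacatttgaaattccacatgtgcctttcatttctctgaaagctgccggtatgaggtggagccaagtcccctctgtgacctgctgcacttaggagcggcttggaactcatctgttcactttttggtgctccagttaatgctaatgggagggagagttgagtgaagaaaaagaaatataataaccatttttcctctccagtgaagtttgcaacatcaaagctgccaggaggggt
Tdrd1, GRCr8 chr1:265880775-265881024, plus strand: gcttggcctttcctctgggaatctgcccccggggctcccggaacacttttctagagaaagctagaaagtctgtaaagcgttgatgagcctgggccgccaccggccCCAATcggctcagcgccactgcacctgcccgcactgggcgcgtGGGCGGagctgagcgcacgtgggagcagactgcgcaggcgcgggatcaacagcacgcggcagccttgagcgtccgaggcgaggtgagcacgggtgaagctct

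The 4 windows have little in common. Frmpd1 holds 3 GC boxes and is 79.6% G and C, and Tdrd1 holds 1 GC box and 1 CCAAT box at 65.6%. The windows of Plppr4 (46.8% G and C) and Vwa2 (43.6%) hold no match to the 4 motifs. Of 33469 windows of the same length in the table, 30.5% hold a GC box, 34.0% a CCAAT box, 12.9% a TATA box and 1.59% the cAMP response element, and their median G and C content is 51.2%. These matches are descriptions of the reference sequence, which is that of another strain.

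The genes whose values lie nearest to those of each gene were found by the Euclidean distance over its listed log2 folds, among named genes listed in the same tables. Pbld1 was nearest to Frmpd1 (distance 0.21 over 3 folds), with folds of 7.21, 3.16 and 0.349 in the authors' deposited tables in the order lean against WKY, obese against WKY and obese against lean. Sgms2, a sphingomyelin synthase gene, was nearest to Vwa2 (distance 0.43), with folds of 6.68, 2.50 and 0.287 in the authors' deposited tables. Nothing lay near Plppr4: its nearest genes were Frmpd1 and Pbld1 at distances of 3.29 and 3.49. Nap1l5 (3.29 and 0.42, distance 0.24) and Polq (2.66 and 0.376, distance 0.33) were nearest to Ephx2 over its 2 listed folds in the authors' deposited tables.

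Among the lower genes Vxn and Pus7l were each other's nearest (distance 0.18 over 2 folds), and Cpxm2 was next for both (0.40 from Pus7l and 0.25 from Vxn). Slc28a3, a nucleoside transporter gene, was nearest to Ccdc68 (distance 0.30) and to Tom1l1 (distance 0.26), and Cep128 was next for Tom1l1 (0.44). Egfl6 stood farther off, 0.80 from Ccdc68 and 1.04 from Slc28a3. For Tdrd1 the nearest genes were Klhdc8a, with folds of 0.25, 0.065 and 0.319 in the authors' deposited tables (distance 0.37), and Acox2 (distance 0.84).

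Relatives and pathway partners of the 10 genes were gathered in 8 lists, and 3 of these had a further gene in the lean against WKY table. That table holds 233 genes in all, so few entries are no result about the relatives. In the eicosanoid list that gene was Ephx4, a relative of Ephx2, with a fold of 2.58 in lean against WKY (adjusted p = 4.39e-10), 0.268 in obese against WKY and 0.081 in obese against lean in the authors' deposited tables. The strain difference of Ephx4 was thus overturned where that of Ephx2 was cancelled. Sphk1, a sphingosine kinase gene, had folds of 2.46 in lean and 4.44 in obese hearts against WKY, and Cep128 stood at 0.46 and 0.243, in the authors' deposited tables, and obese against lean lists neither.

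Around Ephx2, of 33 other genes of epoxide and eicosanoid enzymes 12 were higher and 2 lower in obese than in lean hearts, and 12 were higher and 3 lower than in WKY, while most were not listed. Over all genes listed in these 2 comparisons, 46.6% and 46.0% were lower. In obese against lean hearts, markers of macrophages (11 of 12), lymphocytes (8 of 12) and endothelium (10 of 12) were also higher, and their part in the counts of this and the next 2 paragraphs was not tested. Ephx1, microsomal epoxide hydrolase, rose 4.72 times against lean hearts (adjusted p = 4.40e-38), Ptgs1, a cyclooxygenase gene, 4.72 times and Cyp4b1 3.05 times in the authors' deposited table. The 2 lower genes were Ephx4 and Ptgds, a prostaglandin D synthase gene, at 0.349 in the authors' deposited table. Ephx2 and Ephx1 thus moved in opposite directions between lean and obese hearts.

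Around Plppr4, 8 of 25 other genes of lysophosphatidate signalling and lipid phosphate phosphatases were higher and 1 lower in obese than in lean hearts. Lower was Plpp7 at 0.279, and among the higher Lpar6, a lysophosphatidate receptor gene, had a fold of 3.66 and Plpp1 one of 2.17 in the authors' deposited table. Plppr5, a relative of Plppr4 and its next neighbour on chromosome 2, was lower in obese than in WKY hearts at 0.339 (adjusted p = 0.00981), opposite to Plppr4, in the authors' deposited table. Beside Vwa2 and Egfl6, 7 of 20 other basement membrane genes were higher and 1 lower in obese than in lean hearts, among them Egfl7 at 3.95, Nid1 at 2.53 and Vwa1 at 2.60 in the authors' deposited table. Vwa1 and Egfl7 thus rose where Vwa2 fell and Egfl6 was not listed.

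For Frmpd1, both LGN family partners were listed in obese against lean in opposite directions, Gpsm1 at 0.163 and Gpsm2 at 2.95 in the authors' deposited table, and 2 of 14 other genes of this list were higher and 2 lower. For Tom1l1, 2 of 17 other sorting genes were higher and 4 lower, with its relatives Tom1l2 at 0.132 and Tom1 at 0.387 and with the kinase gene Lyn at 2.30 in the authors' deposited table. Both relatives fell between lean and obese hearts, a step at which Tom1l1 is not listed. For Tdrd1, 2 of 17 other piRNA genes were higher and 3 lower, including Piwil2 at 0.124 and Pld6 at 0.051 in the authors' deposited table. Among 15 other pseudouridine synthase genes Trub2 alone was listed, at 0.401, and of 13 other centriole appendage genes 3 were higher and 0 lower, namely Ninl at 2.75, Cntrl at 2.30 and Ccdc120 at 2.19, in the authors' deposited table.

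Markers of cell types were listed mainly in the comparisons with obese hearts, whose tables hold 5709 and 5700 genes against 233 for lean against WKY. Of 103 genes in 9 marker lists, 1 was listed in lean against WKY (Pck1, an adipocyte marker that other cells also express, at 2.57 in the authors' deposited table), and with so short a table nothing is read from this low count. In obese against lean hearts 51 were higher and 11 lower: cardiomyocyte markers were lower in 7 of 12 cases (folds of 0.187 to 0.384) and higher in 0, and higher with 0 lower were those of fibroblasts in 7 of 12, endothelium in 10 of 12, macrophages in 11 of 12 and lymphocytes in 8 of 12 cases in the authors' deposited table. Smooth muscle and pericyte markers were mixed, with 5 higher and 2 lower of 12, as were adipocyte markers, with 3 higher and 2 lower of 10. Nerve and Schwann cell markers were higher in 4 of 12 and those of epicardium and mesothelium in 3 of 9, with 0 lower in both. Plppr4, Frmpd1, Vwa2, Ephx2 and Tdrd1 were listed as lower in obese than in lean hearts. The listed cardiomyocyte markers had the same direction, and most of the other listed markers had the opposite one. For Plppr4 the fall depends on which tables are read. The part of the marker changes in these falls was not tested. Levels per sample are not in the tables, so the labelled tissue could not be checked against absolute marker levels.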

How the data were processed

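Left ventricles of 6 WKY, 6 ZSF1 lean and 6 ZSF1 obese male rats were sequenced, grouped by the sample titles. Per the submitters' processing notes, HISAT2 2.1.0, HTSeq 0.11.2, DESeq2 1.22.2 and the Rnor_6.0 build were used. For their settings and any shrinkage of folds, nothing is given in the sources used here. Per the file headers, each of the 3 deposited tables gives a linear fold (the ratio between the first-named and the other group) and an FDR, an adjusted p-value, which the authors computed. Values per rat were not used here, so depth is unknown and the authors' adjusted p is the sole measure of error. The labels do not say whether the rats shared litters or batches.

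The 10 genes were matched by symbol, each to 1 identifier. Folds were converted to log2. A strain difference was said to be added to, partly cancelled, cancelled or overturned from the signs of the listed calls. Whether this rule places genes rightly where the folds of the tables disagree was not tested. Genes named are the 10, list genes in the lean table or else up to 3 per list by adjusted p (with relatives and partners chosen after their values were seen), listed neighbours within 5 places, 2 nearest genes by fold pattern and the next in order by fold. Predicted names were left out. The genes, the 8 pathway lists and the 9 marker lists were chosen with earlier results of these data known. Alternatives were stricter thresholds, folds worked out from the other 2 tables and counts by symbol. Python 3.11.15 with pandas 2.3.3, NumPy 2.4.6 and Matplotlib 3.10.9 was used. Gene order and promoters came from RefSeq tables of GRCr8, in which 207 of the 233 lean-listed genes were found by symbol.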

Additional observations from a re-analysis of the deposited data

How the results depend on the processing

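With an adjusted p under 0.01, 10 of 10 genes kept their class, under 0.001 8 of 10 did, with a fold of 3 6 of 10 and with a fold of 4 1 of 10, which was Egfl6. All genes listed in lean against WKY have an adjusted p of at most 0.0003474. The stricter adjusted p limits could therefore change only the calls with obese hearts. Under these limits the 5 genes with no further change listed could not change class. The largest listed adjusted p of the 10 genes is 0.00244, so the 10 of 10 under 0.01 was fixed beforehand and tests nothing. Under 0.001, 1 gene was partly cancelled (Frmpd1) and 2 were cancelled, since Vwa2 joined Ephx2, while Plppr4 had no further change listed. With a fold of 3, 1 gene was partly cancelled (Plppr4), Ephx2 and Frmpd1 had no further change listed, Vwa2 was cancelled, and 1 (Tom1l1) had no strain call. With a fold of 4, 6 had no strain call, 3 had no further change listed, 0 were partly cancelled and 0 added to. From the folds against WKY alone, an alternative added after seeing the data, 9 of 10 kept their class, and Plppr4 had no further change. Ephx2 has no listed fold in obese against WKY and was placed as cancelled by the rule itself, so its class was not tested there. Worked out from the other 2 tables, the log2 fold of Plppr4 in obese against lean was 0.76 in place of -1.80, and that of Vwa2 in obese against WKY was 0.68 in place of 1.43. Over all 233 genes no class count moved by over 1.5 times with an adjusted p under 0.01 or when counted by symbol. With a fold of 3, which fewer genes pass, all 10 counts, 5 in each direction, moved by more than that. No paired analysis was possible because the tables hold no values per rat and the groups share no replicate numbers. Left-out rats could not be tried for the same reason.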

Other observations

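Among the 207 genes of the lean against WKY table found in the RefSeq gene order, 11 pairs lie within 5 places of each other. Of these, 6 pairs differed in the same direction between lean and WKY hearts and 5 in opposite directions, and 3 of the 5 pairs of direct neighbours are of the second kind. Beside Tdrd1 and Vwa2 these are Ifi44l (0.24) with Ptgfr, the prostaglandin F receptor gene (2.22), and Rbm12b (2.19) with Cibar1 (0.48), by fold in the authors' deposited table. Of all 233 genes listed in lean against WKY 63.9% were higher. The share of unrelated pairs with like direction was not worked out, so nothing is read from the counts of pairs by direction. Both members of the pair Ifi44l and Ptgfr went back towards WKY in obese hearts, with folds against lean hearts of 2.24 and 0.423 in the authors' deposited table. Ace, which encodes angiotensin-converting enzyme, and Cyb561 are a pair 2 places apart that were both higher, with folds of 5.43 and 2.17 in lean and 3.92 and 2.85 in obese hearts against WKY in the authors' deposited tables, and obese against lean lists neither.

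Tcp11x2, Setd4, Sez6l and Ifit1 are also near the top of the lean against WKY table. None of these was listed as lower in obese than in lean hearts, as the 4 higher genes described were. The first 3 rose further, with folds of 6.45, 2.95 and 2.91 in obese against lean in the authors' deposited table, and Ifit1 was not listed there, although its folds against WKY, 15.1 in lean and 180 in obese hearts in the authors' deposited tables, differ 11.9 times. These genes were named after their values were seen. For Tcp11x2, Setd4 and Sez6l the deposited strain fold and that worked out from the obese tables differ by 0.86, 2.00 and 1.28 log2 units. The sizes of their further rises are therefore uncertain.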
